A study of Homo sapiens with 12 samples.

Results

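DT genes are long noncoding RNA genes that start at the promoter of a named protein-coding gene and run the opposite way, and their symbol is the name of that neighbour followed by -DT, for divergent transcript. The count files held 589 rows with such a symbol among 60649 genes, and 56 of the 589 had no read in any library. The 167 DT genes described here (28.4% of the 589) were chosen by their measured level: their mean CPM, the raw count relative to the library total, was at least 1 in at least 1 of the 4 treatment groups. Each was set beside its partner, the gene named before -DT. The just-included members were CKAP2-DT, at 1.0023 CPM in its highest group, and RFX3-DT, at 1.02, and the rows just below the threshold were OXA1L-DT at 0.999 and RELA-DT at 0.986.

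The libraries came from spheroids of SBC3, an established human small cell lung cancer line, in 4 groups of 3 libraries: Control, Teriflunomide, Lurbinectedin, and the combination that the labels call Teriflunomide/Lurbinectedin. Teriflunomide inhibits dihydroorotate dehydrogenase, an enzyme of pyrimidine synthesis, and lurbinectedin is an alkylating drug that binds the minor groove of DNA and blocks transcription by RNA polymerase II. All 12 libraries share the line and the spheroid culture, and doses and treatment times are not given in the sources used here. RNA was purified on RNeasy columns, made into libraries with the KAPA mRNA HyperPrep kit and sequenced. Nothing in the labels says whether the 3 libraries of a group came from separate cultures, so p-values measure the spread between these libraries, which may be technical.

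Promoters of human protein-coding genes commonly start transcription in both directions. The upstream transcript is usually ended early, through polyadenylation signals close to its start and through the Integrator and Restrictor complexes, and is then degraded by the nuclear RNA exosome, which the NEXT and PAXT adaptors bring to it. Where such a transcript is spliced, polyadenylated and kept, it can be annotated as a stable DT gene. A DT gene and its partner thus usually share a promoter region but are read from different strands and have different lengths.

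Library totals ranged from 23206414 to 33222162 counts. Teriflunomide replicate 3 and Combination replicate 2 stood apart: the mitochondrial share of counts was 22.6% and 24.9% in them, against 6.26 to 7.17% in the Control libraries, 8.42 and 8.43% in the other Teriflunomide libraries, 13.8 to 17.1% in the Lurbinectedin libraries and 13.1 and 14.6% in the other Combination libraries. The share was higher in every drug-treated library than in every Control library, while Lurbinectedin and Combination overlapped, as did Teriflunomide and Combination. Its part in the comparisons with Control was not tested. Of the markers of small cell lung cancer, INSM1 was at 0 in all 12 libraries and NCAM1, EPCAM and KRT18 stayed at or below 0.322 CPM, while the means in Control and Lurbinectedin were 4.03 and 1.62 CPM for NEUROD1, 16.8 and 30.9 for SYP, 38.5 and 69.6 for ENO2, 243 and 421.9 for KRT8, and 246 and 64.9 for YAP1. Among markers of other cells, the immune marker PTPRC and the endothelial marker VWF stayed at or below 0.0957 CPM, CD68 (immune) and PECAM1 (endothelial) at or below 0.351 and 0.545, and LUM was at 0. The collagen genes COL1A1 and COL1A2 had means of 266 and 270 CPM in Control and 106.5 and 99.9 in Lurbinectedin. These markers moved with lurbinectedin, and the part of the cell state or cells they mark in the results below was not tested.

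All 167 partners were protein-coding genes on the opposite strand. The 5′ ends of a DT gene and its partner lay a median of 152 bases apart, 116 pairs were within 300 bases, 153 within 1000, and in 46 pairs the 2 genes overlapped at their heads. For 14 pairs the distance was above 1000 bases, up to 173400, so by these coordinates not every pair shares a promoter region. The DT genes spanned 0.403 to 392.9 kb, with a median of 9.13 kb, and the partners a median of 36.5 kb. To show the kind of sequence that lies between such a pair of starts, 7 stretches are printed, read from RefSeq promoter sequences of GRCh38.p14, in which 129 of the 167 members had an entry. They belong to the DT genes with the largest difference upwards (CTCF-DT, BMP2K-DT, KDM7A-DT) or downwards (SUCLG2-DT, SEPTIN7-DT) under lurbinectedin, and to PCCA-DT and USP34-DT, 2 of those that departed furthest from their partner, among members with at least 40 exon-free bases between both starts. The exon-free condition, and with it KDM7A-DT, PCCA-DT and USP34-DT, was chosen after the values were seen. Each stretch runs 5′ to 3′ on the strand of the DT gene and lies upstream of its start by the coordinates used for counting. Stretches were cut to the RefSeq promoter window, so some cover only part of the bases between both starts. That of USP34-DT stops at the end of its window, short of the start used for counting. The window reaches 50 bases past the RefSeq start, so most of this 58-base stretch lies downstream of that start. Capitals mark the letters GGGCGG, known as the GC box, CCAAT or TATAAA on either strand, and no printed match overlaps another.
CTCF-DT: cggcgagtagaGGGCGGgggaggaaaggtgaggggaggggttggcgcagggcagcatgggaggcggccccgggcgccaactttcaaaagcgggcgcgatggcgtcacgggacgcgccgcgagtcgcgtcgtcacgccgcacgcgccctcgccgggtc
BMP2K-DT: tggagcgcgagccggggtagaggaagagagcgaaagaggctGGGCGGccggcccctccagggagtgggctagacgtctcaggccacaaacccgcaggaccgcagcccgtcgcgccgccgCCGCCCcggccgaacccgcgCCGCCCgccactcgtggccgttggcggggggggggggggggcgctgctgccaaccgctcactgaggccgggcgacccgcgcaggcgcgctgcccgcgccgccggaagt
KDM7A-DT: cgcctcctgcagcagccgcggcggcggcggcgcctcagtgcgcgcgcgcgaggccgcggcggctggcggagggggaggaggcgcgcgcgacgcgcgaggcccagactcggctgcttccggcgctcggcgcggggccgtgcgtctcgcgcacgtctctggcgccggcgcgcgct
SUCLG2-DT: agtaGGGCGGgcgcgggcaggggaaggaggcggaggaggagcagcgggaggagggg
SEPTIN7-DT: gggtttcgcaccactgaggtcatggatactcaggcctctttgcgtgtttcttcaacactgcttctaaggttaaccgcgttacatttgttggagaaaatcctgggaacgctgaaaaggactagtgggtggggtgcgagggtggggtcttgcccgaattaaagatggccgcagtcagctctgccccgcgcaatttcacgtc
PCCA-DT: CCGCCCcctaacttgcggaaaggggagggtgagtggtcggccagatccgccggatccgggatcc
USP34-DT: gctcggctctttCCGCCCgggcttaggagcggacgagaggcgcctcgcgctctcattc

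The stretch of CTCF-DT is chr16:67562310-67562466 (minus strand, 157 bases, 74.5% G or C, 25 CG dinucleotides). That of BMP2K-DT is chr4:78775974-78776220 (minus strand, 78.1% G or C), with 3 GGGCGG matches, and that of KDM7A-DT is chr7:140177011-140177183 (plus strand, 83.2% G or C), with no match. The 56-base stretch of SUCLG2-DT, chr3:67654613-67654668 on the plus strand, are 76.8% G or C, whereas the stretch of SEPTIN7-DT, chr7:35800677-35800875 on the minus strand, is 53.3% G or C with 11 CG dinucleotides. The stretches of PCCA-DT (chr13:100088951-100089014, minus strand) and USP34-DT (chr2:61471088-61471145, plus strand) are 64 and 58 bases long and hold 1 GGGCGG match each. Over RefSeq promoter windows of 300 bases (250 before and 50 after a start), the 129 members had a median of 69.3% G or C and 31 CG dinucleotides, against 58.7% and 14 for all 35116 windows. GGGCGG was present in 79.1% of the members' windows and 45.0% of all windows, CCAAT in 32.6% and 34.6%, and TATAAA in 6.2% and 11.5%. The windows of the partners gave 68.0% G or C and 77.6% with GGGCGG. The starts of a DT gene and its partner lay a median of 152 bases apart, so their windows often share many bases. Similar values were thus partly set in advance, and nothing is read from the closeness of partners and DT genes. GGGCGG was in 36 of 42 windows (85.7%) of members called higher under lurbinectedin and in 32 of 45 (71.1%) of those called lower. Some of these members passed the CPM threshold only in groups with lurbinectedin or only in groups without it. Their direction was thus partly set by how members were chosen. The shares were not tested against each other, and nothing is read from their difference.

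DT genes were low in abundance beside their partners. Over the 12 libraries the median member stood at 0.729 CPM per kb of exon and the median partner at 6.91, and only 12 members exceeded their partner on this per-length scale. BAIAP2-DT was the most abundant of those 12, at 3.29 CPM per kb against 2.38 for BAIAP2, a scaffold protein of the actin cytoskeleton. TBC1D22A-DT followed at 2.98 against 1.52, and KDM7A-DT at 2.85 against 1.83 for KDM7A, a histone demethylase. PKD2L2-DT had the largest ratio, at 0.165 against 0.0135 CPM per kb, beside a partner too low to be tested. In all comparisons below, levels are CPM after TMM scaling, changes are from edgeR's quasi-likelihood test over 16683 genes, and the threshold for calling a gene was an adjusted p (Benjamini-Hochberg) of 0.05. CPM is a share of a library, so a change in the total mRNA of a cell is not seen, and in bulk spheroids fewer cells of a type and less RNA per cell cannot be told apart.

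TMEM161B-DT was by far the most abundant member, with 92.7, 83.7 and 89.7 CPM in the Control libraries and 49.6, 63.2 and 40.1 in the Lurbinectedin libraries. These groups did not overlap, and the fall was 0.80 on the log2 scale with a standard error (SE) of 0.24 (adjusted p = 0.00854, edgeR). Teriflunomide replicate 3, at 170.8 CPM, was the highest of all 12 libraries, above 75.5 and 98.8 in the other 2 of its group. NIPBL-DT, beside the gene of the cohesin loader NIPBL, had 25.4, 23.7 and 24.8 CPM in Control and 37.7, 40.8 and 33.4 in Lurbinectedin, a log2 difference of 0.60 ± 0.21 (SE; adjusted p = 0.0213, edgeR). That call is marginal: it was lost without Control replicate 2 or 3 or without Lurbinectedin replicate 1 or 2, with adjusted p from 0.0521 to 0.0757, and under library-size scaling alone (0.0589). ZNF584-DT rose from 15.4, 13.2 and 14.9 CPM to 26.8, 26.5 and 27.4 (log2 difference 0.89 ± 0.12, adjusted p = 1.26e-05, edgeR).

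The partners of these 3 did not follow one pattern. NIPBL fell from 275.1, 298.9 and 298.8 CPM to 46.6, 57.4 and 56.5 (log2 difference -2.44 ± 0.23, adjusted p = 4.48e-07, edgeR) while its DT gene rose, TMEM161B fell by more than its DT gene (-1.53 ± 0.14, adjusted p = 3.22e-07), and ZNF584, a zinc finger gene, rose with its DT gene (0.70 ± 0.13, adjusted p = 0.000196). KDM7A-DT, whose upstream stretch is printed above, rose from 2.55, 2.98 and 2.87 CPM to 10.4, 10.2 and 9.12 (1.82 ± 0.17, adjusted p = 3.33e-07), and KDM7A did not pass the test (-0.33 ± 0.16, adjusted p = 0.0806).

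Other abundant members fell. BAIAP2-DT went from 20.4, 21.9 and 21.1 CPM in Control to 11.3, 9.15 and 10.4 in Lurbinectedin, a fall of 1.04 ± 0.17 on the log2 scale (adjusted p = 9.06e-05, edgeR). PCMTD1-DT went from 24.6, 22.83 and 21.96 CPM to 5.38, 4.97 and 5.09, a fall of 2.17 ± 0.13 (adjusted p = 2.79e-09, edgeR), the smallest adjusted p of any member in this comparison. BAIAP2 rose (0.49 ± 0.17, adjusted p = 0.0166) and PCMTD1 fell less than its DT gene (-0.63 ± 0.19, adjusted p = 0.00902). CTBP1-DT, whose partner encodes a transcriptional corepressor, had 27.98, 28.8 and 29.4 CPM in Control and 32.5, 31.4 and 34.3 in Lurbinectedin and did not pass the test (log2 difference 0.19 ± 0.11, adjusted p = 0.129, edgeR). Thus the 6 most abundant members included 2 that rose, 3 that fell and 1 that did not pass. TMEM161B-DT and CTBP1-DT share exonic bases with genes on the other strand, 1531 and 305 bases. Whether the counting used strand is not given in the sources used here, so reads in such shared stretches cannot be told apart.

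Across the 167 members, 60 were called higher and 55 lower under lurbinectedin, 35.9% and 32.9%, beside a background of 36.0% higher and 35.7% lower over all genes tested. These shares are near the background, and since 29 members passed the threshold only in groups with lurbinectedin and 24 only in groups without it, which had to differ, nothing is read from them. Among the 93 members at 1 CPM or more in all 4 groups, whose membership required no difference between groups, 29 were higher and 32 lower, with a median log2 difference of 0.11 against 0.05 for all genes. The split depends on scaling: with library size alone, which shifted the median of all genes from 0.05 to -0.18, 44 members were higher and 61 lower. Adjusted p-values are given below for DT genes only where the member belongs to these 93. The other 74 were chosen by a level in some of the groups, so their values and differences are a description.

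The members with the largest difference upwards were nearly silent in Control. BTG1-DT (ENSG00000245904.4, chr12:92145573-92226557, beside BTG1, an antiproliferative gene) had 0.067, 0.0334 and 0.0299 CPM in Control, 4 reads in all, and 1.79, 1.76 and 1.75 in Lurbinectedin, a log2 difference of 5.23 ± 0.55. STX5-DT (ENSG00000256690.1, chr11:62832234-62834043, beside the Golgi SNARE gene STX5) had 0.168, 0.234 and 0.179 CPM in Control and 5.67, 4.54 and 3.60 in Lurbinectedin, a log2 difference of 4.54 ± 0.28. The 2 genes shared 274 exonic bases with BTG1 and 517 with WDR74, respectively. Both partners were called higher as well: BTG1 went from 17.7, 18.02 and 18.8 CPM to 75.3, 68.4 and 73.6 (log2 difference 1.99 ± 0.15, adjusted p = 5.21e-08, edgeR), and STX5 from 21.3, 20.5 and 21.1 to 50.5, 47.0 and 51.2 (1.24 ± 0.15, adjusted p = 5.10e-06). Reads in the bases that BTG1-DT shares with BTG1 cannot be told apart, so the 2 values of that pair are not independent.

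TNFRSF10A-DT lies beside TNFRSF10A, which encodes a death receptor for the ligand TRAIL, and shares 1391 exonic bases with genes on the other strand. It had 0.67, 0.468 and 0.478 CPM in Control and 4.56, 4.03 and 4.03 in Lurbinectedin. TNFRSF10A itself stayed low, at 0.268, 0.100 and 0.0896 CPM in Control and 0.436, 0.469 and 0.509 in Lurbinectedin (log2 difference 1.63 ± 0.43, adjusted p = 0.00363, edgeR), so the noncoding gene had more reads than the receptor gene in all 6 libraries. The symbol TNFRSF10A-DT names 2 rows of the files, and 1 of them passed the threshold.

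A second kind of rise was that of a DT gene beside a partner that fell. CTCF-DT (ENSG00000259804.1, chr16:67561411-67562309) had 0.235, 0.134 and 0.12 CPM in Control and 1.16, 1.21 and 1.05 in Lurbinectedin, while CTCF, the gene of the insulator protein, fell from 92.4, 100.8 and 94.9 to 44.2, 48.4 and 49.0 CPM (1.02 ± 0.10 lower on the log2 scale, adjusted p = 7.67e-07, edgeR). GSK3B-DT (ENSG00000242622.2, chr3:120094895-120136783) had 1.11, 1.14 and 1.05 CPM in Control and 6.01, 5.43 and 6.29 in Lurbinectedin, and the kinase gene GSK3B went from 87.6, 94.9 and 90.4 to 9.06, 12.9 and 12.9 CPM (log2 difference -2.96 ± 0.18, adjusted p = 5.92e-09, edgeR). In Control, GSK3B reads outnumbered those of its DT gene many times over, and in Lurbinectedin they came within a few fold. GSK3B-DT shares exonic bases with another gene, so its counts may hold reads of that gene. BMP2K-DT (chr4:78773654-78775973) had 0.235, 0.435 and 0.508 CPM in Control and 2.33, 2.15 and 1.89 in Lurbinectedin, against 26.3, 27.7 and 26.1 and then 8.58, 9.11 and 10.1 CPM for the kinase gene BMP2K. The remaining large rises were SLC20A1-DT (log2 difference 2.21 ± 0.32), beside a phosphate transporter gene that also rose (0.96 ± 0.10, adjusted p = 8.14e-07, edgeR), and DCTN6-DT (2.16 ± 0.33), whose partner, a dynactin subunit gene, did not pass the test (-0.44 ± 0.20, adjusted p = 0.0559).

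The members with the largest difference downwards had long spans. SUCLG2-DT (ENSG00000241316.8, chr3:67654669-67947713, 293 kb) had 3.65, 4.75 and 3.76 CPM in Control, 377 reads in all, and 1 read in each Lurbinectedin library. The ratio of Control to Lurbinectedin was 99.4, with an exact 95% interval of 33.7 to 484 that covers counting error only. SUCLG2, which encodes a subunit of succinate-CoA ligase and spans 294 kb on the other side, fell in parallel from 62.1, 69.0 and 65.2 to 4.22, 4.46 and 3.27 CPM (log2 difference -4.04 ± 0.20, adjusted p = 8.91e-10, edgeR). RFX3-DT (chr9:3526723-3691814, 165 kb) had 0.603, 0.903 and 0.598 CPM in Control and 0.1454, 0.0391 and 0 in Lurbinectedin, and RFX3, a transcription factor gene of ciliated cells, went from 18.4, 19.9 and 17.9 to 0.436, 0.743 and 0.836 CPM (-4.76 ± 0.24, adjusted p = 8.79e-10). SUCLG2, RFX3, EPM2A, SEPTIN7 and DPH6 were long partners that fell with a long DT gene. EPM2A-DT differed by -3.23 ± 0.50 and EPM2A, the laforin gene, by -3.11 ± 0.21; SEPTIN7-DT by -3.02 ± 0.58 and SEPTIN7, a septin cytoskeleton gene, by -1.43 ± 0.14. DPH6-DT, which is at 1 CPM or more in all groups, fell from 6.70, 6.65 and 6.45 to 1.36, 1.13 and 0.872 CPM (log2 difference -2.57 ± 0.21, adjusted p = 7.67e-08, edgeR), and DPH6, a gene of diphthamide synthesis, by 3.93 ± 0.28 on the same scale.

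MFF-DT, COPB2-DT and COPS8-DT, by contrast, had partners much shorter than themselves, which were not lowered to the same degree. MFF-DT (105 kb) had 1.27, 0.869 and 1.08 CPM in Control and 0, 0.0782 and 0.109 in Lurbinectedin, while MFF, the gene of a mitochondrial fission factor, stayed at 44.4, 47.1 and 42.0 and then 41.6, 41.6 and 41.5 CPM (log2 difference -0.10 ± 0.10, adjusted p = 0.382, edgeR). COPB2-DT, the longest member at 392.9 kb, differed by -2.77 ± 0.23 and COPB2, a coatomer subunit gene, by -0.37 ± 0.11 (adjusted p = 0.00753, edgeR). COPS8-DT (175 kb) differed by -2.41 ± 0.38 and COPS8, a COP9 signalosome gene, rose by 0.42 ± 0.11 (adjusted p = 0.00289). MFF-DT, EPM2A-DT and COPB2-DT share 1345, 2071 and 649 exonic bases with genes on the other strand.

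**Figure D1:**
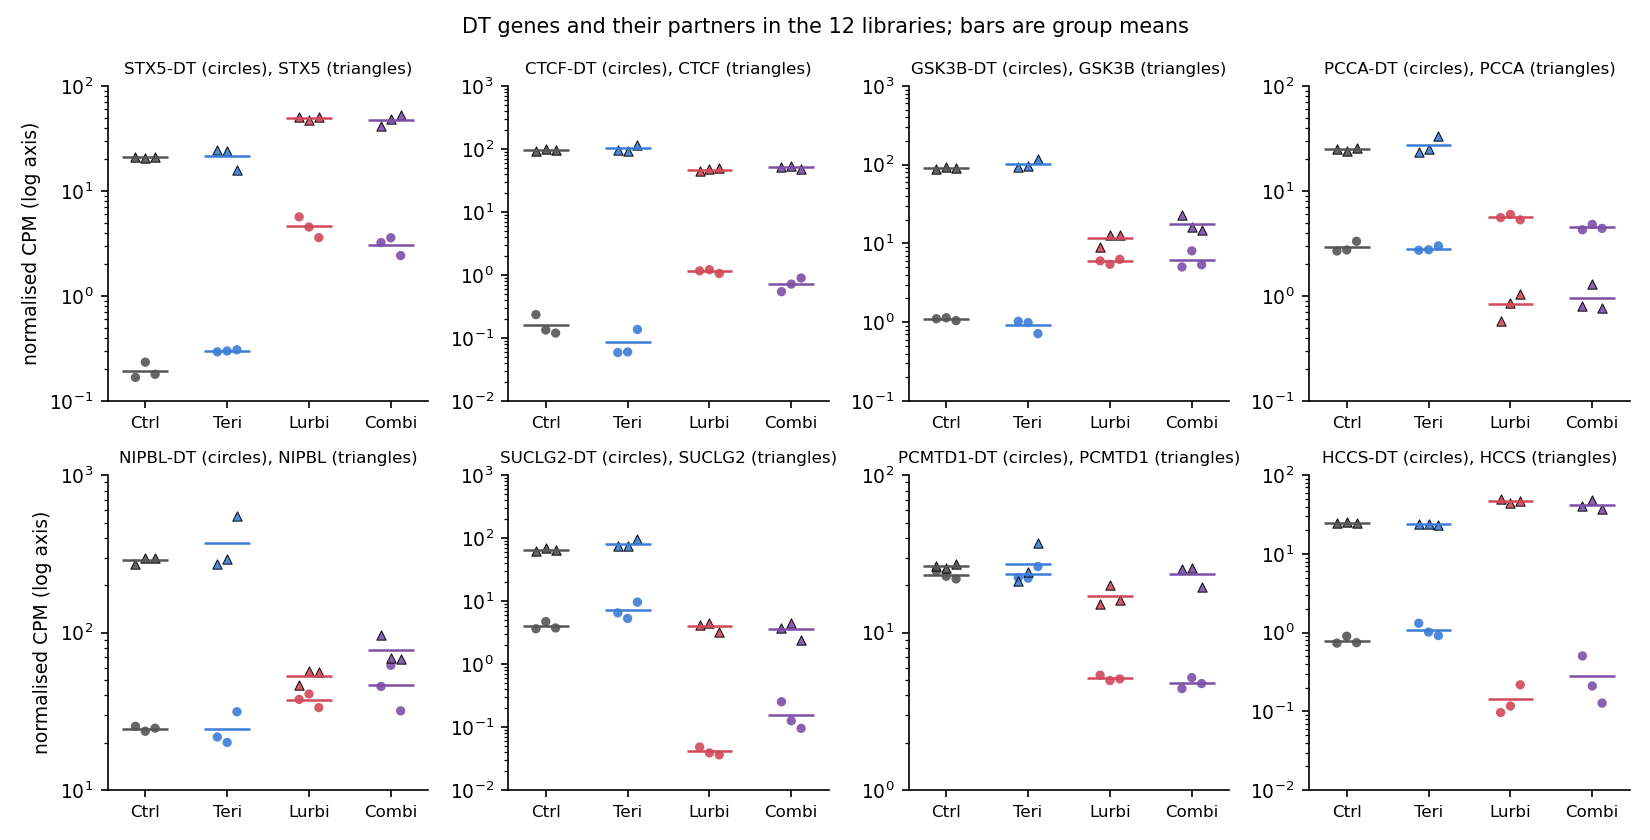
Normalised CPM on a log axis of 8 DT genes (circles) and their partners (triangles, black outline) in the 12 libraries, with bars at the mean of 3. STX5-DT and STX5 are both higher in the Lurbinectedin and Combination libraries, CTCF-DT, GSK3B-DT, PCCA-DT and NIPBL-DT are higher while their partners are lower, SUCLG2-DT and SUCLG2 are both lower, and HCCS-DT is lower while HCCS is higher.

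The change of a DT gene relative to its partner was tested within each library, as the log2 CPM of the DT gene minus that of the partner, with limma over all 2068 divergent pairs of the files. The level of the partner had no role in choosing the members, but that of the DT gene did, so p-values of pairs are again given only for the 93 members present in all groups. Of 166 testable DT pairs, 124 (74.7%) were called under lurbinectedin, 79 with the DT gene relatively higher and 45 relatively lower, beside a background of 67.8% of all divergent pairs called. Restricted to the 93 members at 1 CPM or more in all groups, 70 pairs (75.3%) were called, 42 with the DT gene relatively higher and 28 lower. The median difference was 0.50 on the log2 scale over the 166 pairs. It was 0.45 over 528 other pairs of a noncoding and a coding gene, taken as noncoding minus coding. The 1092 pairs of 2 coding genes were taken as minus-strand minus plus-strand gene. That order is arbitrary and holds their median near 0 in advance, so it is not set beside these. The relative shift towards the noncoding gene was thus of similar size in DT pairs and in other noncoding and coding pairs, and no test was made of DT pairs against the others.

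In 40 of the 166 pairs (24.1%) both genes were called in opposite directions. The share was 16.9% of all divergent pairs and 19.9% of the 528 other pairs of a noncoding and a coding gene. The DT gene was called higher and the partner lower in 21 of the 40, and the reverse held in 19. Both genes were called in the same direction in 55 pairs (33.1%), near the 32.6% of all divergent pairs. Among the 93 members present in all groups, 17 pairs (18.3%) went in opposite directions, near the background. Partners of the 21 DT genes called higher had a median span of 83.1 kb and those DT genes 3.81 kb, while for the 19 reverse pairs the medians were 14.6 kb for the partner and 13.5 kb for the DT gene. Across pairs, Spearman's rho between the log2 differences of the 2 genes was 0.14 (n = 166), against 0.21 for other noncoding and coding pairs and 0.32 for pairs of coding genes; the genes come from the same libraries and the correlation is a description.

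**Figure D2:**
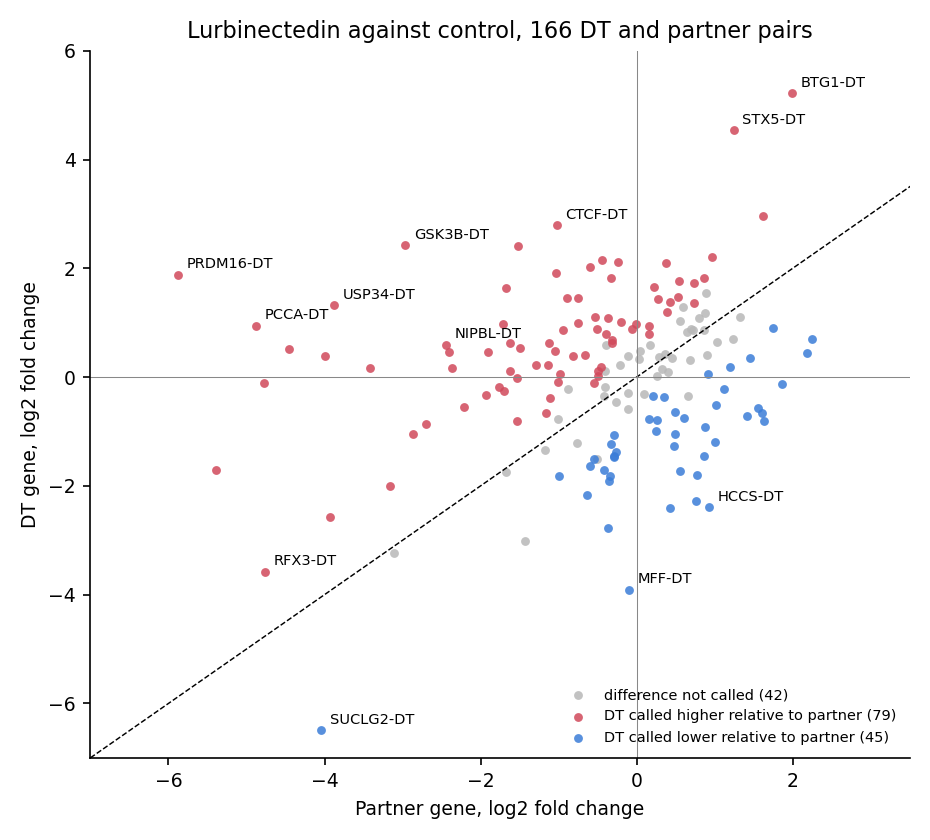
Log2 fold change of each DT gene (vertical axis) against that of its partner (horizontal axis) in lurbinectedin against control for 166 pairs; the dashed line marks equal change, and colour shows whether the difference was called. The DT gene was called relatively higher in 79 pairs (red) and lower in 45 (blue), and the partners reach further to the left than the DT genes reach down, except for SUCLG2-DT.

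The widest gaps lay beside very long partners. PRDM16-DT (ENSG00000177133.12, chr1:3059615-3068437, 8.82 kb) had 0.871, 0.635 and 0.717 CPM in Control and 3.004, 2.35 and 2.91 in Lurbinectedin, while PRDM16, a transcription factor gene of 369.5 kb, went from 19.4, 17.8 and 18.5 to 0.388, 0.196 and 0.364 CPM, a log2 difference of -5.87 ± 0.32 (adjusted p = 1.74e-09, edgeR). The order of the 2 genes was reversed between these groups: the partner was higher in each Control library and the DT gene in each Lurbinectedin library. PCCA-DT (ENSG00000274605.2, chr13:100053074-100088950), beside the 441.4 kb gene of a propionyl-CoA carboxylase subunit, showed the same reversal. It rose from 2.68, 2.74 and 3.32 to 5.57, 5.98 and 5.31 CPM (log2 difference 0.95 ± 0.14, adjusted p = 4.42e-05, edgeR) while PCCA fell from 25.2, 24.2 and 25.4 to 0.581, 0.86 and 1.05. The change of PCCA-DT relative to PCCA was 5.77 ± 0.23 on the log2 scale (adjusted p = 1.61e-11, limma).

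USP34-DT (chr2:61471188-61484130) rose from 1.24, 1.204 and 1.73 to 3.49, 4.14 and 2.87 CPM, and USP34, a deubiquitinase gene of 283.6 kb, fell from 267.7, 277.1 and 282.4 to 17.6, 20.3 and 18.3. The relative change was 5.17 ± 0.30 (adjusted p = 4.95e-10, limma); USP34-DT shares 690 exonic bases with XPO1. GSK3B-DT, described above and also sharing exonic bases with another gene, differed from GSK3B by 5.34 ± 0.29. PRKACB-DT itself had 0.603, 1.07 and 0.627 CPM in Control and 0.969, 1.37 and 0.945 in Lurbinectedin, groups that overlapped, while PRKACB, a protein kinase A catalytic subunit gene of 160.4 kb, went from 64.5, 66.7 and 63.3 to 1.84, 3.32 and 3.56. Here the relative change of 5.003 ± 0.37 came with a large difference in the partner and a small, overlapping difference in the DT gene.

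On the other side stood long DT genes beside short partners. HCCS-DT (263.6 kb) had 0.737, 0.903 and 0.747 CPM in Control and 0.0969, 0.117 and 0.218 in Lurbinectedin, and HCCS, the holocytochrome c synthase gene of 11.8 kb, rose from 24.9, 25.3 and 24.5 to 50.2, 44.8 and 47.5 (log2 difference 0.93 ± 0.11, adjusted p = 4.33e-06, edgeR). SRP14-DT (37.3 kb) went from 3.42, 2.84 and 3.29 to 1.16, 0.704 and 0.909 CPM, and SRP14, a signal recognition particle gene of 3.49 kb, rose from 106.6, 108.7 and 101.6 to 194.1, 176.2 and 172.2 (0.78 ± 0.19, adjusted p = 0.00231). LY6E-DT (36.7 kb) differed by -2.28 ± 0.31 and LY6E, a surface antigen gene of 5.85 kb, by 0.77 ± 0.31 (adjusted p = 0.041, edgeR). MFF-DT, HCCS-DT, LY6E-DT, COPS8-DT and SRP14-DT were the 5 pairs with the most negative relative change, from -3.11 ± 0.36 to -2.50 ± 0.29. All 5 lie outside the 93 members present in all groups, and LY6E-DT, SRP14-DT and MFF-DT share exonic bases with other genes.

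The difference of a gene followed its own length more than that of its neighbour. For partners, Spearman's rho between the lurbinectedin log2 difference and their span was -0.78 (n = 166), and with the span of the DT gene it was -0.23. For DT genes, rho was -0.41 with their own span (n = 167) and -0.03 with the span of the partner, and the corresponding value over 16651 nuclear genes tested was -0.57. Of the 42 longest partners (88.5 to 864.3 kb), 41 fell and 0 rose, beside 84.6% lower and 5.69% higher among the 3042 genes tested in that range of span. Among their DT genes 9 were called higher and 14 lower, with a median of 0.09; in 34 of these 42 pairs the DT gene was called relatively higher and in 3 lower. Of the 42 longest DT genes (35.9 to 392.9 kb), 6 were called higher and 26 lower, with a median log2 difference of -1.13, near the median of -0.89 for the 6364 genes tested in that range of span. In the 42 shortest DT genes (0.403 to 2.69 kb) 18 were called higher and 9 lower, with a median of 0.44 against 0.66 for all genes of that span. The relation of DT genes with their own span was weaker among the 93 members present in all groups, with a rho of -0.21. There it was -0.06 with the span of the partner, so the contrast was smaller. For the partners of these 93, rho with their own span was -0.72. These correlations are descriptions over genes measured in the same libraries.

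**Figure D3:**
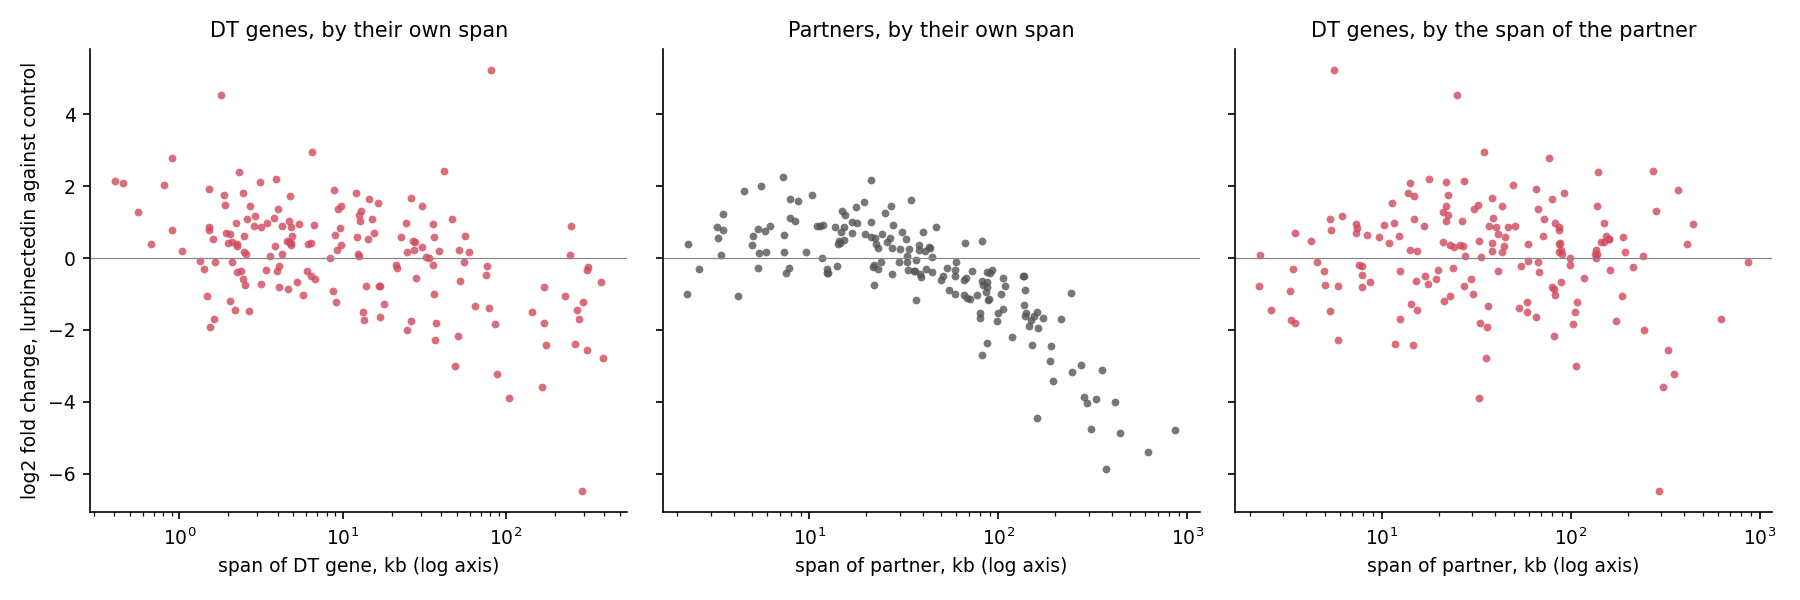
Log2 fold change in lurbinectedin against control (vertical axis) by gene span in kb on a log axis, for the DT genes of 166 pairs by their own span (left), for their partners by their own span (middle) and for the DT genes by the span of the partner (right). Partners of longer span lie lower (rho -0.78), DT genes less so with their own span (rho -0.41), and no trend is visible in the right panel (rho -0.03).

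The geometry of a pair was compared in the same way, as counts. Pairs with 5′ ends apart (121) were called in opposite directions in 34 cases (28.1%), and the 45 tested pairs with overlapping heads in 6 (13.3%). Spearman's rho between the 2 genes was 0.08 and 0.33 in these sets, and in the overlapping set reads in shared exons cannot be assigned to a strand from what is given. Among 94 members whose exons overlap no other gene, 42 were called higher and 28 lower, and 27 pairs (28.7%) went in opposite directions, beside 13 of 72 pairs (18.1%) with shared exonic bases. The DT genes of those 72 pairs were called higher in 18 and lower in 26. These counts include members that passed the threshold only in groups with lurbinectedin or only in groups without it, so nothing is read from them. The shares over all features are those given above (36.0% higher, 35.7% lower and 16.9% of pairs opposite). Among members present in all groups, 15 of 66 pairs with 5′ ends apart (22.7%), 2 of 27 with overlapping heads (7.41%), 12 of 53 exon-free pairs (22.6%) and 5 of 40 with shared bases (12.5%) were opposite. In the 53 exon-free pairs 21 DT genes were called higher and 16 lower, and in the 40 with shared bases 8 and 16. No test was made between these sets. The 13 tested pairs with starts more than 1000 bases apart held 0 opposite and 6 same-direction calls.

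Under the combination, 65 members were called higher and 53 lower against Control, beside a background of 34.1% higher and 34.4% lower, and against Teriflunomide 73 and 52, beside 35.2% and 35.8%. With library size as the only scaling the order against Control turned, with 50 higher and 58 lower. Among the 93 members present in all groups the counts were 30 and 31 against Control, and 38 and 30 against Teriflunomide. In the pair test, 118 of 166 DT pairs were called in combination against Control, 76 with the DT gene relatively higher, beside a background of 64.6%. This comparison shares its Control libraries with that of lurbinectedin, so the values are given side by side: PCCA-DT differed by 0.62 ± 0.15 under the combination and 0.95 ± 0.14 under lurbinectedin, USP34-DT by 1.44 ± 0.24 and 1.32 ± 0.25, PCMTD1-DT by -2.27 ± 0.13 and -2.17 ± 0.13, and NIPBL-DT by 0.92 ± 0.21 and 0.60 ± 0.21. In single libraries PCCA-DT had 4.27, 4.81 and 4.40 CPM in Combination, all above the Control libraries, beside 0.796, 1.31 and 0.766 for PCCA. NIPBL-DT varied widely there, with 45.6, 62.1 and 31.9 CPM, and the highest value belongs to replicate 2, the library with the highest mitochondrial share. TMEM161B-DT, lower under lurbinectedin, did not pass the test under the combination (-0.37 ± 0.24, adjusted p = 0.19, edgeR).

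Directly between combination and lurbinectedin, 0 of 167 members were called by edgeR, beside a background of 0.0% of all genes; 12 members (7.19%) had an unadjusted p under 0.05, beside 15.6% of all genes, and DESeq2 called 1, RNASEH1-DT. RNASEH1-DT (ENSG00000234171.3, chr2:3558474-3564842) had 7.61, 7.35 and 8.29 CPM in Lurbinectedin and 5.36, 5.82 and 5.07 in Combination, groups that did not overlap (log2 difference -0.52 ± 0.12, adjusted p = 0.151, edgeR). A p that misses the threshold does not show that the groups were alike. For the interaction of the 2 drugs edgeR called 0 members, beside 0.258% of all genes; 28 (16.8%) had an unadjusted p under 0.05, beside 10.3% of all genes, and DESeq2 called 1, BOLA3-DT (log2 0.78, adjusted p = 0.00689). Without Teriflunomide replicate 3, edgeR called 2, BOLA3-DT (0.82, adjusted p = 0.0199) and SAP30-DT (1.53, below 1 CPM in Teriflunomide); both names were taken after their values were seen.

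Few DT genes were called under teriflunomide alone. Against Control, 6 members were called higher and 6 lower (3.59% each), beside a background of 3.88% higher and 2.13% lower, and among the 93 present in all groups 3 rose and 4 fell. The fit rests on the Control libraries as well as on Teriflunomide replicate 3: of the 12 members, 6, 4 and 3 were still called without Control replicate 1, 2 or 3, and 9 without Teriflunomide replicate 3, where 2 others were called. With library size as the only scaling 1 member was called higher and 5 lower.

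Among the falls, RNASEH1-DT, beside the gene of ribonuclease H1, had 11.1, 10.9 and 11.02 CPM in Control and 5.31, 5.599 and 5.08 in Teriflunomide (log2 difference -1.05 ± 0.12, adjusted p = 0.000481, edgeR), the smallest adjusted p of any member here. RNASEH1 did not pass the test (-0.19 ± 0.15, adjusted p = 0.456), and the DT gene fell relative to it by 0.84 ± 0.17 (adjusted p = 0.0125, limma). BOLA3-DT, beside a gene of iron-sulfur cluster assembly, went from 10.1, 11.2 and 10.2 to 5.48, 5.42 and 6.17 CPM (-0.89 ± 0.13, adjusted p = 0.00203), and BOLA3 stayed at 21.95, 20.6 and 20.2 and then 20.7, 22.1 and 21.5. Both were called in each of the 6 fits that left out 1 Control or Teriflunomide library. TBC1D22A-DT, chosen by its level in the other groups and given as a description, had 2.28, 1.81 and 1.88 CPM in Control and 0.821, 1.05 and 0.886 in Teriflunomide, and TBC1D22A, a gene of 413.1 kb, did not pass there (-0.38 ± 0.15, adjusted p = 0.149). BMP2K-DT had 0.117, 0.0299 and 0.0341 CPM in Teriflunomide, 6 reads in all against 37 in Control, and ZNF584-DT fell by 0.48 ± 0.12 (adjusted p = 0.0355).

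Among the rises, KDM7A-DT (ENSG00000260231.2, chr7:140177184-140179640) went from 2.55, 2.98 and 2.87 CPM in Control to 4.81, 4.13 and 5.42 in Teriflunomide (log2 difference 0.77 ± 0.17, adjusted p = 0.0204, edgeR). KDM7A rose with it, from 15.3, 15.8 and 14.5 to 20.6, 21.4 and 31.5 (0.69 ± 0.16, adjusted p = 0.0242). PPP1R3B-DT had 2.11, 1.40 and 1.64 and then 3.08, 3.23 and 4.53 CPM, and PPP1R3B, a glycogen-targeting phosphatase subunit gene, rose by 0.45 ± 0.11 (adjusted p = 0.0369). USP46-DT rose from 3.45, 3.44 and 3.14 to 5.13, 4.64 and 5.66 (0.62 ± 0.15, adjusted p = 0.0316), and its partner, a deubiquitinase gene, did not pass (-0.33 ± 0.12, adjusted p = 0.118). The rises were the less stable side: of the 6, PPP1R3B-DT alone was still called without Control replicate 1, and none without Control replicate 2 or 3. Without Teriflunomide replicate 3, NUP107-DT, SUCLG2-DT and FLVCR1-DT were no longer called, and the call of FLVCR1-DT was lost in each of the 6 fits that left out 1 library. Among the rises, PPP1R3B-DT, NUP107-DT and FLVCR1-DT share exonic bases with other genes and may hold their reads. None of the members called lower does. In the pair test 10 of 166 DT pairs were called under teriflunomide, beside 3.58% of all divergent pairs, 3 with the DT gene relatively higher and 7 lower. The largest relative rise was that of HK2-DT, at 1.12 ± 0.19 (adjusted p = 0.00421, limma): HK2, the hexokinase gene, fell from 191.4, 190.9 and 196.4 to 117.0, 119.8 and 117.5 CPM, while HK2-DT had 4.93, 5.68 and 6.39 and then 6.71, 7.13 and 8.93. CCDC15-DT showed the reverse: it had 2.18, 2.44 and 2.15 CPM in Control and 1.73, 1.53 and 1.94 in Teriflunomide, while CCDC15, a coiled-coil protein gene, rose from 8.14, 7.62 and 8.90 to 13.2, 12.7 and 18.8, and the relative change was -1.20 ± 0.29 (adjusted p = 0.034, limma).

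**Figure D4:**
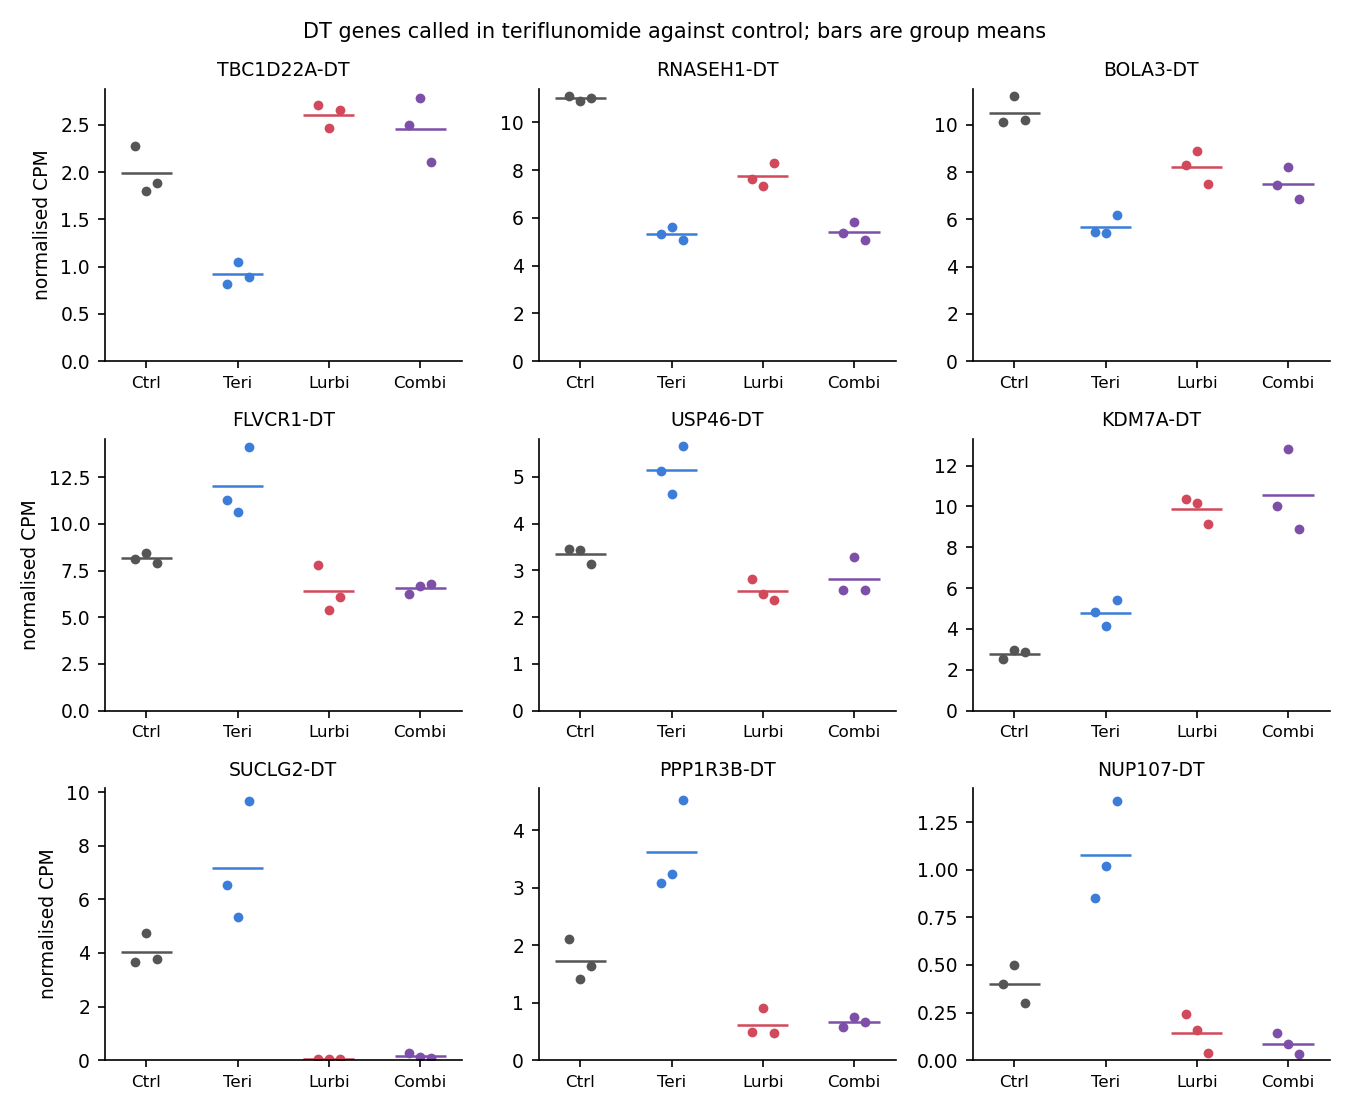
Normalised CPM from 0, in the 12 libraries, of the 6 DT genes called higher in teriflunomide against control and of the 3 called lower in each fit that left out 1 library, with bars at the mean of 3. The Control and Teriflunomide points do not overlap in any panel, and Teriflunomide replicate 3, the rightmost of its 3 points, is the highest of its group for all 6 genes called higher.

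Genes linked to the ending and degradation of promoter-upstream transcripts were read from a list of 59: the RNA exosome, the NEXT and PAXT adaptors, cap-binding factors with ARS2, Restrictor, Integrator, the cleavage and polyadenylation machinery and the U1 snRNP. The list was not split by whether a factor promotes or opposes these steps. All 59 were tested, and under lurbinectedin 23 rose (39.0%) and 21 fell (35.6%), near the 36.0% and 35.7% of all genes, with a median log2 difference of -0.03 against 0.05 for all genes. INTS9, a subunit of the Integrator cleavage module, fell from 34.1, 34.4 and 33.0 to 1.41, 2.07 and 1.71 CPM (-4.28 ± 0.20, adjusted p = 3.95e-10, edgeR), and INTS3 from 144.2, 142.0 and 149.7 to 27.9, 33.9 and 37.3 (-2.13 ± 0.17, adjusted p = 7.77e-08). CLP1, of the cleavage and polyadenylation machinery, rose from 16.7, 17.2 and 18.9 to 104.8, 86.3 and 92.7 CPM (2.43 ± 0.13, adjusted p = 1.33e-09), and SRRT, which encodes ARS2, from 199.0, 208.8 and 214.5 to 568.4, 525.6 and 540.2 (1.39 ± 0.11, adjusted p = 9.94e-08). Under teriflunomide 2 of the 59 were called, both lower (3.39%, beside 2.13% of all genes): INTS3 (-0.69) and SNRPA (-0.45).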

How the data were processed

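Gene-level read counts for 12 libraries were used as deposited by the authors, with 60649 genes each. The submitters' processing notes name fastp 0.23.2, STAR 2.7.9, Subread, featureCounts and the build hg38; the annotation release, the use of strand and the treatment of multimapping reads are not given in the sources used here. Groups came from the treatment labels. Counts were filtered with filterByExpr (16683 genes kept), scaled by TMM and tested with edgeR 4.0.16 (glmQLFit, robust) on all 12 libraries without covariates, with Benjamini-Hochberg adjustment over all genes. Divergent pairs had opposite strands and 5′ ends at most 1000 bases apart by the coordinates in the files, or were a DT member and its partner. Their log2 CPM difference (prior count 2) was tested with limma 3.58.1 over 2068 pairs. The scripts were tested on simulated data. Alternatives used DESeq2 1.42.0, other scaling, filters, priors, pair distances and fits without each library; exon-free members were added as an alternative after the data were seen.

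DT genes named with values were the 8 largest rises and 8 largest falls under lurbinectedin and the 4 and 4 under teriflunomide, called and with groups that did not overlap, the 6 most abundant, the 5 most positive and 5 most negative pair differences, the 2 of smallest p between combination and lurbinectedin, and those at the threshold, each with its partner; of the 59 RNA surveillance genes, the 2 largest rises and 2 largest falls. Names outside this rule (OXA1L-DT and RELA-DT apart) were chosen after their values were seen, among them BOLA3-DT, USP46-DT, FLVCR1-DT, HK2-DT, CCDC15-DT, SAP30-DT, PKD2L2-DT and SNRPA. The members and lists were chosen with earlier results of these data known. Sequences are from RefSeq, GRCh38.p14. Some items that the rule names are not reported here.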

Additional observations from a re-analysis of the deposited data

How the results depend on the processing

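The lurbinectedin and combination counts kept to within 1.5 times of 115, 118 and 125 members and of 124 and 118 pairs under every scaling, filter, tool and left-out library run, apart from counts over fewer members, which were lower by construction: among the 94 exon-free members (an alternative chosen after seeing the data) 70 were called for lurbinectedin, 67 for combination against Control and 74 for combination against Teriflunomide, with 71 and 65 pairs for lurbinectedin and combination, and of the 103 members at 2 CPM or more 78 were called in combination against Control. The teriflunomide count of 12 was less stable: 6 with library size as the only scaling, 21 with DESeq2, 3 when only its 2 groups were fitted, and 3 to 13 when 1 library was left out, with 3 to 11 of its pairs; the cause was not tested. DESeq2 called 1 member in combination against lurbinectedin and 1 in the interaction, and the interaction count ranged from 0 to 2 when 1 library was left out. With the replicate number as a block, teriflunomide gave 5 members and 5 pairs, and no other count moved by over 1.5 times. Same-numbered libraries deviated from their group means with correlations from -0.402 to 0.144, so the numbers were not taken to pair the libraries. For the named members under lurbinectedin, 345 of the recomputed differences stayed on their side of the threshold. A further 14 were no longer past it (NIPBL-DT and NUP107-DT among them) and 1 passed it newly (PRKACB-DT). Among differences past the threshold in either fit, 0 reversed. A sign change where neither fit passed was counted among the 345, as for CTBP1-DT (0.19, and -0.04 with library size as the only scaling). Most members have few reads, so single low values carry large counting error.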

Other observations

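Summed over the 167 members, DT genes took 616.7 to 639.5 CPM in the Control libraries, 554.9 to 614.9 in Lurbinectedin and 579.7 to 684.2 in Combination. In Teriflunomide the sums were 590.7, 607.0 and 738.6, and the highest value belongs to replicate 3, where TMEM161B-DT alone had 170.8 CPM; without that gene the sum in replicate 3 was 567.8, against 515.2 and 508.3 in the other 2. The median log2 ratio of DT gene to partner over the 166 pairs lay between -4.34 and -4.24 in the Control libraries and between -3.90 and -3.61 in the Lurbinectedin libraries. For the 93 members present in all groups it lay between -3.47 and -3.43 in Control and between -3.24 and -3.18 in Lurbinectedin. The DT gene had the higher CPM, not corrected for length, in 6 or 7 pairs of each Control library and in 12 pairs of each Lurbinectedin library. This count runs over all 166 pairs. It includes members that passed the threshold only in groups with lurbinectedin (29) or only in groups without it (24). The difference was thus partly set by how members were chosen, and nothing is read from it.

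The 40 opposite-direction pairs lie beside genes of many kinds, and 5 not yet named are given here, picked after their values were seen. WAPL-DT rose by 0.86 on the log2 scale under lurbinectedin while WAPL, the gene of the cohesin release factor, fell by 0.94. CDK13-DT differed by 0.97 and CDK13, a transcriptional kinase gene, by -1.71. PAPOLA-DT differed by 1.92 and PAPOLA, a poly(A) polymerase gene, by -1.03. CDK13-DT and PAPOLA-DT were not at 1 CPM or more in all 4 groups, so their values are a description. PAPOLA-DT also shares exonic bases with another gene. In the reverse direction TFIP11-DT differed by -1.20 and TFIP11, a splicing factor gene, by 1.01, and CENATAC-DT by -0.71 and CENATAC, of the minor spliceosome, by 1.41.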
